A study of Mus musculus with 4 samples.

Results

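The genes described here, in 4 RNA-seq libraries, are Tox, Tbx21, Eomes, Prdm1, Nr4a1, Nr4a2, Nr4a3, Batf, Irf4 and Id2. They encode transcription factors that direct effector and exhausted states in cytotoxic T cells. The genes were chosen by symbol, as 10 of the 55367 gene rows in each table of read counts, and all 10 were among the 11837 genes with enough reads to be tested. Per the labels, each library was made from polyadenylated RNA of CD45.2+CD8+ cells sorted from dissociated tumors of B16-F10, a transplantable mouse melanoma line. The titles give 2 libraries as WT and 2 as KO, and the series concerns Satb1, whose protein organizes chromatin in T cells. The series text names WT mice, Satb1 F/F; ThPOK-cre mice and Satb1 F/F; E8I-cre mice for its single-cell experiment, and no label says which Cre driver the KO libraries carry. ThPOK-cre acts from commitment to the CD4 lineage and E8I-cre in mature CD8 cells, so the cells that would lack Satb1 depend on that driver. The labels give neither the age of these mice nor whether libraries numbered 1 and 2 came from separate animals, so that p-values measure the spread between libraries, which may be technical.

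Exhaustion is the state into which cytotoxic T cells pass under persistent antigen, with inhibitory receptors on the surface and weakened cytokine output. Calcium signals from the antigen receptor activate NFAT, which induces the NR4A nuclear receptors and TOX, and these factors together favor the exhausted state. T-bet and EOMES, encoded by Tbx21 and Eomes, divide the effector and memory programs between them, whereas BATF and IRF4 bind DNA jointly on activation, BLIMP-1 (Prdm1) drives terminal differentiation and ID2 holds E proteins in check. Several of these genes are also active outside T cells: Irf4, Id2 and Batf in dendritic cells, Prdm1 and Irf4 in plasma cells and Nr4a1 in macrophages.

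The libraries held 4017875 to 5382915 counts on genes, and no pair agreed within sampling noise, with a chi-square per degree of freedom of at least 24.4. Satb1 was counted 7 and 5 times in WT 1 and WT 2 but 131 and 55 times in KO 1 and KO 2, a difference that did not pass (log2 fold change 3.36, edgeR adjusted p = 0.115) but did in 6 of 15 alternatives, DESeq2 among them. Per 100 counts of the T cell list given next, Satb1 had 2.21, 0.919, 1.13 and 0.743 counts, and the groups overlapped. Neither measure checks the KO label, so that each direction below is that of the libraries as labeled. T cell markers were scarce for cells labeled as a CD8+ sort: the 12 genes of a T cell list, among them Cd3e, Cd8a and Trac, took 0.00789%, 0.0128%, 0.260% and 0.137% of gene counts in that order. In contrast, 11 macrophage genes took 2.91% and 3.96% in WT 1 and WT 2 and 2.28% and 2.85% in KO 1 and KO 2, so that both KO-labeled libraries were lower. Lyz2 had the most counts of this list in every library (29370, 57521, 67802 and 58896) and a log2 fold change of 0.01. The median of the 11 was -0.96, and 7 had both KO-labeled libraries below both WT-labeled ones, as had 2678 of the 11837 genes tested. None of the 11 passed in the edgeR quasi-likelihood test and 1 did in DESeq2. Melanoma genes, 7 in number, had larger shares under the KO label too, with 0.232% and 0.1253% against 0.0217% and 0.0254%. So did 9 dendritic cell genes in sum, with 0.0269% and 0.0160% against 0.00665% and 0.0118%. Of these 6 were tested and none passed, although 3 did in DESeq2 and 4 had an unadjusted p under 0.05. Both KO-labeled libraries were above both WT-labeled ones for 4 of the 6, against 25.3% of genes tested, and below for 1, Wdfy4. The part of these cells in the values below was not tested. Xist and 4 Y-linked genes also split the libraries by label, and sex cannot be told apart from group. In such bulk libraries, fewer T cells and less RNA per T cell cannot be told apart.

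Tox and Tbx21 rose in the KO-labeled libraries, by log2 fold changes of 5.01 and 4.18, while the other 8 members did not pass the threshold. The edgeR quasi-likelihood test with Benjamini-Hochberg adjustment over all genes called 2 of the 10 members at an adjusted p under 0.05, against 0.574% of all genes tested, and at an unadjusted p under 0.05 there were 6, against 13.7% of genes. DESeq2 called 4, adding Nr4a2 and Nr4a3, against 3.51% of genes. In normalized CPM, the count scaled to a common library size, 7 of 10 members had both KO-labeled libraries above both WT-labeled ones, and among all genes tested this held for 25.3%. These were Tox, Tbx21, Eomes, Nr4a1, Nr4a2, Nr4a3 and Irf4. Batf, Prdm1 and Id2 had groups that overlapped. The median log2 fold change of the members was 2.21, beside 0.05 over all genes tested, and single values ran from -0.49 for Id2 to 5.01 for Tox. By rank from the highest fold change among the 11837 genes, Tox stood at 97, Tbx21 at 164, Nr4a3 at 361, Nr4a2 at 387 and Eomes at 436.

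**Figure D1:**
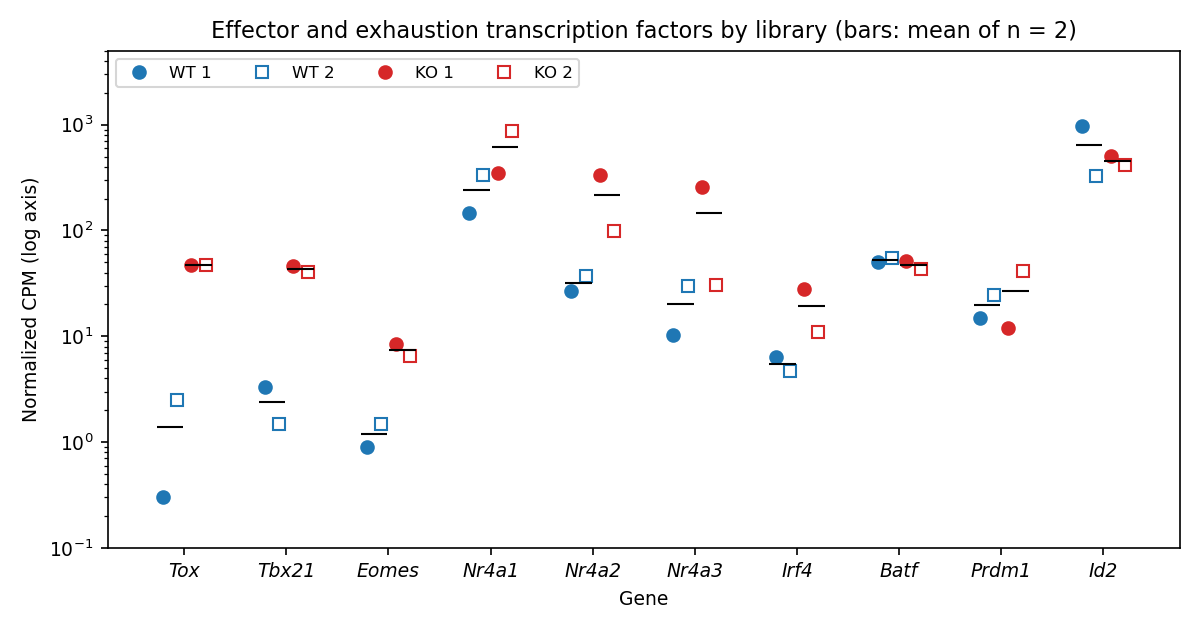
Normalized CPM (log axis) of the 10 genes in each of the 4 libraries, with circles for libraries numbered 1, squares for those numbered 2, blue for WT, red for KO and black bars for group means of n = 2. Tox and Tbx21 lie between 0.301 and 3.31 in the WT-labeled libraries and between 40.7 and 47.6 in the KO-labeled ones, whereas the points of Batf, Prdm1 and Id2 interleave.

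Tox encodes an HMG-box factor that is needed for exhausted T cells to form and persist. The gene lies on the minus strand of chromosome 4 (GRCm38/mm10, 6686353 to 6991557), and 3.42% of its exonic bases are shared with Gm11802 on the other strand. It had 1 and 10 counts in WT 1 and WT 2 and 250 and 272 in KO 1 and KO 2, which are 0.301, 2.48, 47.6 and 47.5 normalized CPM. The KO-labeled libraries were almost equal, and the WT-labeled ones lay near the detection floor, since 3 counts corresponded to 0.902 CPM in WT 1 and 0.743 in WT 2. The means were 1.39 ± 1.54 CPM (SD, n = 2) and 47.5 ± 0.0697 CPM (SD, n = 2). This gave a log2 fold change of 5.01 (SE 0.76, 95% interval 3.29 to 6.73, edgeR adjusted p = 0.0295), with 2 of 2 KO-labeled libraries higher. In pooled counts the ratio was 31.8, with an exact 95% interval for counting error from 17.6 to 64.1. Without WT 2 a single WT count was left, and the ratio became 158 with an interval from 28.2 to 6256. Without WT 1 it became 19.2, from 10.3 to 40.2.

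Tbx21 encodes T-bet, the T-box factor of type 1 effector cells that activates Ifng. It lies on the minus strand of chromosome 11 (97098071 to 97115331). Its counts were 11 and 6 in the WT-labeled libraries and 242 and 233 in the KO-labeled ones, or 3.31, 1.49, 46.0 and 40.7 normalized CPM in the order used for Tox. The groups were far apart, with 2.40 ± 1.29 CPM (SD, n = 2) against 43.4 ± 3.81 CPM (SD, n = 2). Its log2 fold change of 4.18 (SE 0.61, 95% interval 2.81 to 5.56) passed the threshold (edgeR adjusted p = 0.0292). The value ranged from 3.65 to 4.79 when each library was left out in turn. In limma-voom neither gene passed, with adjusted p-values of 0.190 for Tox and 0.159 for Tbx21, a fit in which no gene of the table passed and 5 members had an unadjusted p under 0.05, as had 1464 of the 11837 genes.

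Eomes, the T-box relative of Tbx21 that is tied to memory and to late exhaustion, was scarcer than Tbx21 in the KO-labeled libraries. It lies on the plus strand of chromosome 9 (118478212 to 118486132) and shares 2.84% of its exonic bases with Gm33460 on the other strand. Counts of 3 and 6 in the WT-labeled libraries stood against 44 and 37 in the KO-labeled ones, which are 0.902, 1.49, 8.37 and 6.46 normalized CPM. The groups did not overlap, but the log2 fold change of 2.59 (SE 0.85) missed the threshold (edgeR adjusted p = 0.237). Within the T-box pair, Eomes made up 15.4% of the counts in KO 1 (exact 95% interval 11.4% to 20.1%) and 13.7% in KO 2 (9.84% to 18.4%). These shares overlapped within counting error, and with 14 and 12 counts on the pair in the WT-labeled libraries its make-up there was hardly measurable. NK cells also use both factors. The 5 NK cell genes took 0%, 0.000258%, 0.00246% and 0.000223% of gene counts in WT 1, WT 2, KO 1 and KO 2. Of the 5, 2 were at 0 under the WT label and 1 at 0 under the KO label. Klre1, 1 of the 5, had 0, 7, 104 and 10 counts. The part of NK cells in the values of Eomes and Tbx21 was not tested.

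The NR4A factors are orphan nuclear receptors made within an hour or so of antigen receptor or cAMP signaling, and in T cells they restrain effector genes. Their promoters are shown because all 3 members stood higher in both KO-labeled libraries and because they share a short element that the choice of genes did not use. Each line gives the 250 bases before the RefSeq start on the strand of the gene, from chr15:101266596-101266845 (plus strand) for Nr4a1, chr2:57124004-57124253 (minus) for Nr4a2 and chr4:48045055-48045304 (plus) for Nr4a3 in GRCm38.p6. The starts of Nr4a1 and Nr4a3 lie inside the longer spans that GENCODE gives these genes. Capitals mark TGACG or its reverse complement CGTCA, the half-site of the cAMP response element (CRE) bound by CREB.
Nr4a1: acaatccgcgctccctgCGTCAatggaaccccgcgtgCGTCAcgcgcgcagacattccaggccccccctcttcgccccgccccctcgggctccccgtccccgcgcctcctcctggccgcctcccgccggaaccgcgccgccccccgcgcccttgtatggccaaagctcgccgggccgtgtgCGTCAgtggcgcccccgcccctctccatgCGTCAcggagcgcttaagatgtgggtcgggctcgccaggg
Nr4a2: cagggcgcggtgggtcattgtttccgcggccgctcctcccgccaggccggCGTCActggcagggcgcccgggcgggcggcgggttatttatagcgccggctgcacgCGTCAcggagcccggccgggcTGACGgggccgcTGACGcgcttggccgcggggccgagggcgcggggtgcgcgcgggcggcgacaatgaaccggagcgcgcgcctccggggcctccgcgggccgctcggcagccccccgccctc
Nr4a3: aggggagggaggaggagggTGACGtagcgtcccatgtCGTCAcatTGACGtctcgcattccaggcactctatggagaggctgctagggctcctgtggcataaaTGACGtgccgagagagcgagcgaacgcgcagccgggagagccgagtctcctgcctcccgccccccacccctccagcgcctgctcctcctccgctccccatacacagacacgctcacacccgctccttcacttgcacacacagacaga

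Each NR4A promoter held 4 half-sites, counted on both strands. At least 4 occurred in 0.137% of 32851 promoters of the same length and at least 1 in 17.8%. The NR4A promoters are rich in G and C (74.4%, 80.0% and 63.6% of bases), and among the 6582 promoters with at least the lowest of these GC contents, 0.380% held 4 or more. Prdm1 and Batf held 1 half-site each, and Tbx21, Eomes, Irf4 and Id2 held none in this window. None of the 9 member promoters in the table held the complete CRE (TGACGTCA), found in 1.55% of all promoters, or the NR4A response element (AAAGGTCA), found in 1.34%. Prdm1 held 1 AP-1 element (TGANTCA, in 6.75% of promoters) and Nr4a3 held 1 T-box half-site (GGTGTGA, in 3.33%). The complete CRE contains the half-site, and the motifs were chosen after the promoters had been seen.

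**Figure D2:**
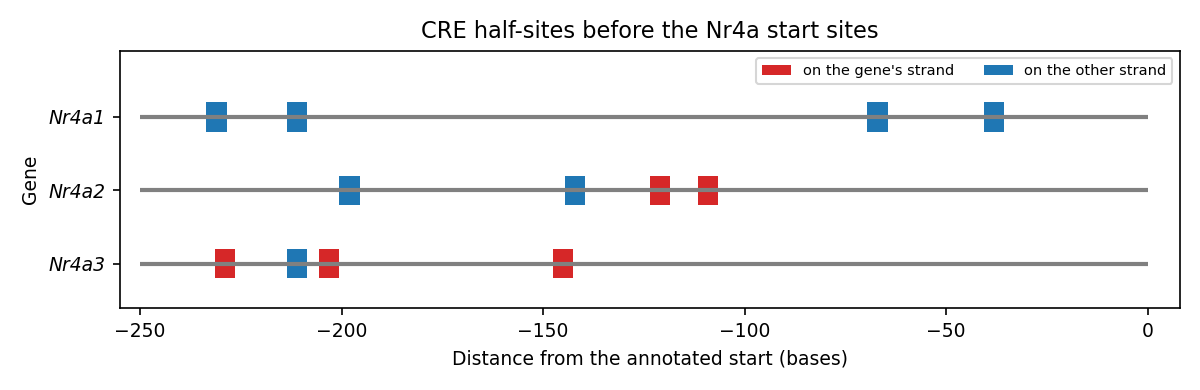
Positions of the CRE half-site in the 250 bases before the RefSeq start of Nr4a1, Nr4a2 and Nr4a3, with distance from the start in bases on the horizontal axis, red for the strand of the gene and blue for the other strand. Each gene has 4, and those of Nr4a1 lie in an outer pair beginning at -233 and -213 and an inner pair beginning at -69 and -40.

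Nr4a1 encodes NUR77, the most abundant of these receptors here, and lies on chromosome 15 (101254269 to 101274795, plus strand). From WT 1 to KO 2 in the same order it had 486, 1338, 1842 and 4989 counts, or 146, 331, 350 and 871 normalized CPM. WT 2 and KO 1 were close, and KO 2 stood highest. The means were 239 ± 131 CPM (SD, n = 2) and 611 ± 368 CPM (SD, n = 2). With an SE of 0.61, the log2 fold change of 1.35 had a 95% interval from -0.02 to 2.73 and missed the threshold (edgeR adjusted p = 0.371). It ranged from 0.52 without KO 2 to 2.03 without WT 2.

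Nr4a2, which encodes NURR1, lies on chromosome 2 (57106830 to 57124003, minus strand). It had 26.8, 37.2, 332 and 98.4 normalized CPM in the same order, from 89, 150, 1745 and 564 counts. Both KO-labeled libraries exceeded both WT-labeled ones, and KO 1 was the highest by far. At a log2 fold change of 2.75 (SE 0.62, 95% interval 1.35 to 4.14), Nr4a2 missed the threshold (edgeR adjusted p = 0.0981). It was 1.61 without KO 1 and 3.34 without KO 2, where it passed (edgeR adjusted p = 0.000572), as it did in DESeq2. Over all alternatives its adjusted p ran from 0.000134 to 0.530.

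Nr4a3, which encodes NOR1, lies on chromosome 4 (48045153 to 48086447, plus strand). Its counts were 34, 120, 1366 and 174, or 10.2, 29.7, 259.9 and 30.4 normalized CPM. KO 2 exceeded WT 2 by less than 1 CPM, and KO 1 stood apart from the other 3 libraries. The fitted log2 fold change of 2.85 (SE 0.91, 95% interval 0.80 to 4.91, edgeR adjusted p = 0.229) became 0.59 without KO 1. It became 3.65 without KO 2 (edgeR adjusted p = 0.00198) and 3.74 without WT 2 (edgeR adjusted p = 0.0293), within a range of adjusted p over all alternatives from 7.1e-05 to 0.664.

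The make-up of the NR4A family therefore differed between the KO-labeled libraries. Nr4a1 took 79.8%, 83.2% and 87.1% of the NR4A counts in WT 1, WT 2 and KO 2, but 37.2% (exact 95% interval 35.8% to 38.6%) in KO 1. There Nr4a2 took 35.2% and Nr4a3 27.6%, against at most 14.6% and 7.46% in the other libraries. The summed level of the 3 genes was nevertheless alike in KO 1 and KO 2, with 942 and 999 normalized CPM, above 183 and 398 in WT 1 and WT 2. These intervals cover counting error only, because the reads carry no molecular identifiers and PCR copies cannot be told from separate molecules. KO 1 also differed from KO 2 in genes of other cells. The 6 fibroblast genes took 0.147% of gene counts in KO 1 against 0.0181% in KO 2, with 0.000772% and 0.000305% in WT 1 and WT 2. The 4 plasma cell genes took 0.0269% in KO 1 against 0.000539% in KO 2. Of these 4 genes 2 were at 0 in both KO-labeled libraries. Igkc had 998 counts in KO 1 and 29 in KO 2, and Jchain had 208 and 0. Of the fibroblast genes 4 were tested, and 3 rose in the KO-labeled libraries with a median log2 fold change over the 4 of 7.46. Over all genes tested 0.574% passed, and DESeq2 called 2 of the 4, against 3.51% of genes. Each fibroblast gene had at most 15 counts in any WT-labeled library, so that these fold changes are imprecise. The part of those cells in the NR4A values was not tested.

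Irf4 encodes an interferon regulatory factor that is induced in proportion to antigen receptor signal strength and lies on chromosome 13 (30749226 to 30766976, plus strand). It had 21, 19, 147 and 63 counts, or 6.31, 4.71, 27.97 and 10.99 normalized CPM. Both KO-labeled libraries were higher, KO 1 most. A log2 fold change of 1.82 (SE 0.66, 95% interval 0.34 to 3.30) did not pass (edgeR adjusted p = 0.276). It was 0.99 without KO 1 and 2.31 without KO 2, where it passed (edgeR adjusted p = 0.0347, the lowest of a range over alternatives up to 0.885). Its paralog Irf8, which directs macrophage and dendritic cell development, was far more abundant in read counts. Irf4 made up 1.08% and 1.11% of the Irf4 and Irf8 counts in WT 1 and WT 2, 11.8% in KO 1 (exact 95% interval 10.1% to 13.8%) and 2.27% in KO 2. Igkc, an immunoglobulin light chain gene of B and plasma cells in which Irf4 is also active, had 4, 2, 998 and 29 counts, and its part in the Irf4 values was not tested.

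Batf encodes the AP-1 factor that pairs with JUN proteins and binds next to IRF4, and lies on chromosome 12 (85686669 to 85709087, plus strand). It was the steadiest member, with 50.8, 55.0, 51.8 and 42.9 normalized CPM from 169, 222, 272 and 246 counts. The groups overlapped, and the log2 fold change of -0.16 (SE 0.42) had a 95% interval from -1.11 to 0.79 (edgeR adjusted p = 0.898). With library totals in place of TMM factors it was 0.18, a scaling under which the median of all genes moved to 0.39. The relative Batf3, which is required for conventional type 1 dendritic cells, had 170, 262, 150 and 75 counts. The share of Batf among the counts on the pair was therefore 49.9% and 45.9% under the WT label, and 64.5% and 76.6% under the KO label. For Batf3 itself a log2 fold change of -1.48 (SE 0.51) did not pass (edgeR adjusted p = 0.258), and the adjusted p over the alternatives ran from 0.0443 to 0.717.

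Prdm1 encodes BLIMP-1, a repressor that drives terminal effector and plasma cell differentiation, and lies on chromosome 10 (44437177 to 44528501, minus strand). It had 49, 99, 63 and 236 counts, or 14.7, 24.5, 12.0 and 41.2 normalized CPM, so that KO 1 was the lowest library and KO 2 the highest. Its log2 fold change of 0.44 (SE 0.64) was within the spread of the libraries (edgeR adjusted p = 0.800) and turned to -0.75 without KO 2.

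Id2 encodes an inhibitor of E protein transcription factors and had the highest group mean per kb of exon under either label, although Nr4a1 was higher in KO 2. It lies on chromosome 12 (25093799 to 25097140, minus strand). Its counts of 3199, 1310, 2649 and 2366 gave 962, 324, 504 and 413 normalized CPM. WT 1 was the highest library and WT 2 the lowest, so that the KO-labeled libraries fell between them. Its log2 fold change of -0.49 (SE 0.58, 95% interval -1.79 to 0.82, edgeR adjusted p = 0.747) turned to 0.44 without WT 1. Id2 held 92.3% to 96.7% of the counts on Id2 and Id3 in every library.

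**Figure D3:**
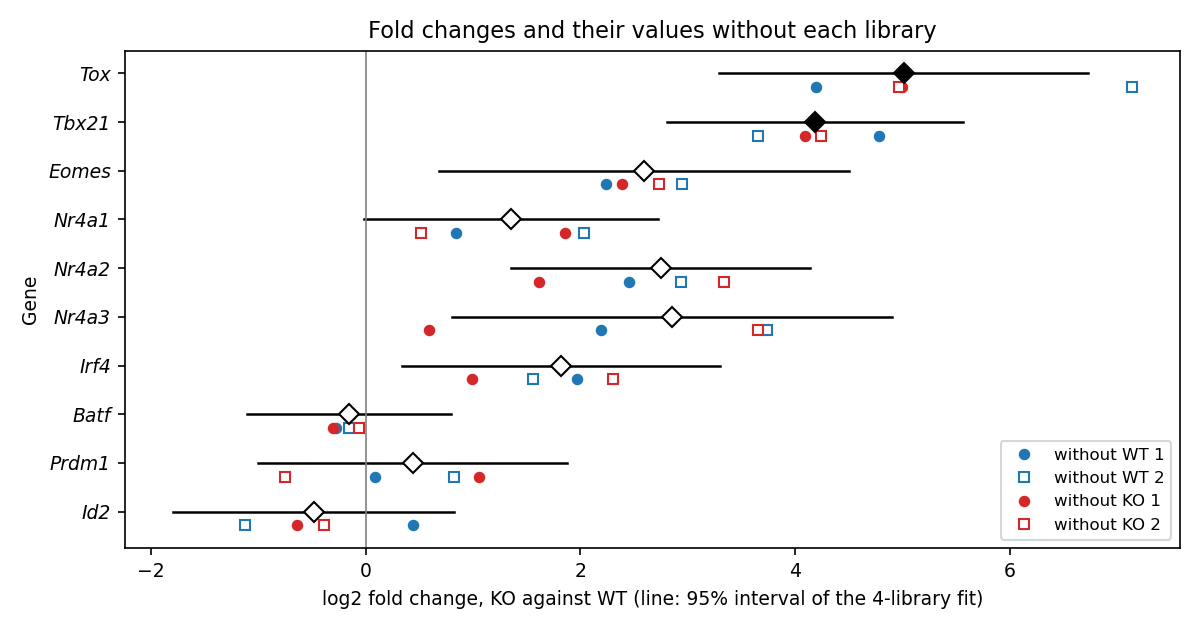
Log2 fold changes of KO against WT for the 10 genes (diamonds, filled where the adjusted p was under 0.05) with 95% intervals as lines, and below each the value without WT 1, WT 2, KO 1 or KO 2. Tox and Tbx21 stay at 3.65 or above, Nr4a3 drops to 0.59 without KO 1, and Id2 and Prdm1 lie on both sides of 0.

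Levels were compared between genes as normalized CPM per kb of exon. In the WT-labeled libraries the order of the group means was Id2 (133 to 394 over the libraries), Nr4a1 (41.6 to 94.4), Batf (36.1 to 39.1), Nr4a2 (6.59 to 9.15), Prdm1 (2.64 to 4.39), Nr4a3 (1.71 to 4.96), Irf4 (0.960 to 1.29), Tbx21 (0.597 to 1.33), Eomes (0.217 to 0.358) and Tox (0.0395 to 0.325). The ranges of Prdm1 and Nr4a3, of Irf4 and Tbx21, and of Eomes and Tox overlapped, so that their order was not resolved. In the KO-labeled libraries, Id2 (169 to 207) and Nr4a1 (99.9 to 248) still led on this per-kb scale but overlapped. Nr4a2, Batf, Nr4a3 and Tbx21 followed with ranges that overlapped from each to the next. Tbx21 (16.3 to 18.5) was separate from Tox (6.24 to 6.25), and Eomes (1.55 to 2.01) was last. Tox had ranges that overlapped that of Eomes in the WT-labeled libraries and that of Prdm1 (2.15 to 7.38) in the KO-labeled ones, where it stood above Eomes.

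Against the T cell markers the picture was different. Counts summed over the T cell list were 317, 544, 11632 and 7398 in the order of libraries above, all 12 of its genes were higher in both KO-labeled libraries, and 9 passed the threshold. Tox had 0.315 and 1.84 counts per 100 counts of that list in the WT-labeled libraries and 2.15 and 3.68 in the KO-labeled ones, and was the only member of the 10 with both KO-labeled libraries above both WT-labeled ones on this scale, as were 0.845% of all genes tested. The WT values rest on 1 and 10 counts. Tbx21 had 3.47 and 1.10 against 2.08 and 3.15, with overlapping groups. Eomes had 0.946 and 1.10 against 0.378 and 0.5001, lower in both KO-labeled libraries. On the same scale Nr4a1, Nr4a2, Irf4, Batf, Prdm1 and Id2 were lower in both KO-labeled libraries, and Nr4a3 overlapped. Of all genes tested 95.2% were lower in this way, so that the 7 of 10 members below were no more than the share of genes at large. The log2 ratio of the group means ran from -4.51 for Id2 to 1.44 for Tox. When each library was left out in turn, the ratio of Tox ran from 0.66 without WT 1 to 3.21 without WT 2, and that of Id2 from -5.20 without WT 2 to -3.14 without WT 1. That of Tbx21, 0.19, ran from -0.41 without WT 2 to 1.25 without WT 1. These ratios are a description and were not tested. How much of each member's RNA came from T cells was not tested.

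**Figure D4:**
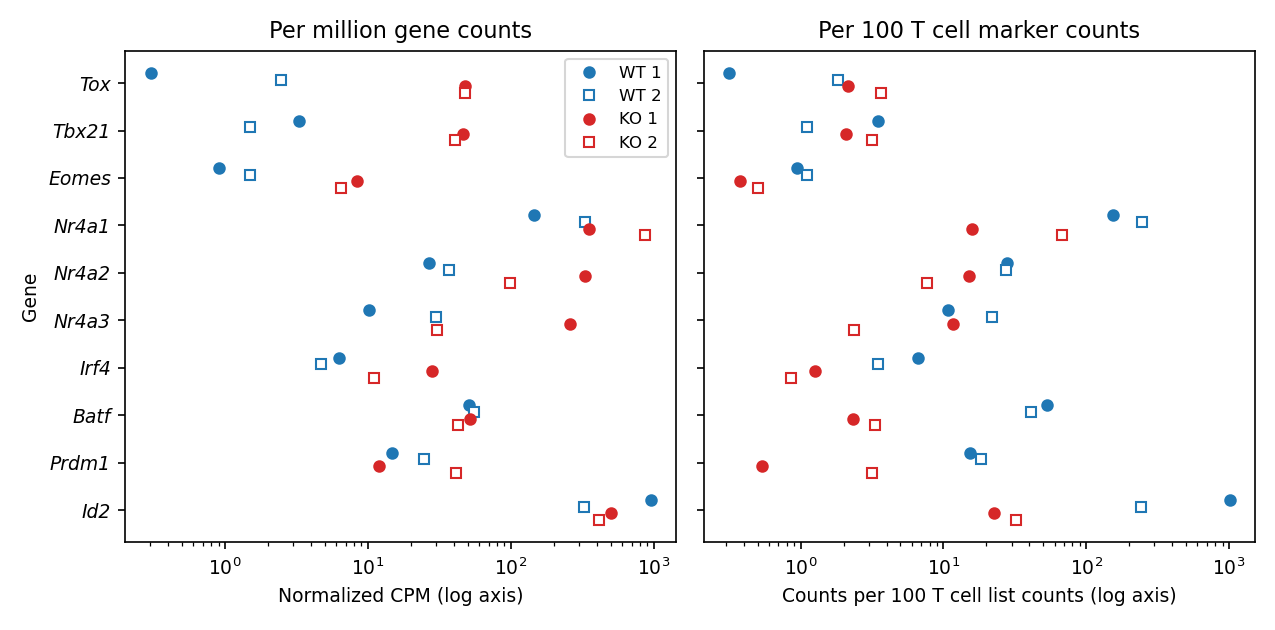
The 10 genes in each library as normalized CPM (left) and as counts per 100 counts of the 12 T cell marker genes (right), both on log axes, with blue for WT, red for KO, circles for libraries numbered 1 and squares for those numbered 2. Tox has both KO points to the right of both WT points in the 2 panels, whereas Batf, Prdm1 and Id2 interleave on the left and lie lower in KO on the right.

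Companion genes of the same pathway were read from the same fit. Upstream, none of the 8 calcineurin and NFAT genes passed, their median was 0.79 in log2 fold change, and 2 had an unadjusted p under 0.05; DESeq2 called none and the edgeR likelihood ratio test 1, against 4.7% of genes. Ppp3cc, a catalytic calcineurin subunit, had 9 and 17 counts against 105 and 88 and a log2 fold change of 2.34 (edgeR adjusted p = 0.164), and Ppp3ca, another catalytic subunit, had 1.05. Over the libraries left out Ppp3ca ran from 0.25 without KO 1 to 1.99 without WT 2, and Ppp3cc passed without KO 2 (edgeR adjusted p = 0.0434). Of the 7 AP-1 partner genes none passed in the edgeR quasi-likelihood or likelihood ratio test, DESeq2 or limma-voom and none had an unadjusted p under 0.05, with log2 fold changes from 0.01 to 0.42. The highest were those of Fosl2 and of Junb (0.35), a JUN protein with which BATF pairs. Nor did any of the 8 immediate early genes, again with none at an unadjusted p under 0.05 and none in DESeq2 or the likelihood ratio test. Egr3 had the largest log2 fold change (1.79) from 5, 5, 33 and 19 counts. Egr2, an early target of antigen receptor signaling, had 236, 318, 271 and 1611 counts and, like Nr4a1, was highest in KO 2. Its log2 fold change of 1.15 turned to -0.57 without KO 2 and was past the threshold without KO 1 (1.90). Among 15 paralogs of the members 11 were tested and none passed in the edgeR quasi-likelihood test with group as the only term or in DESeq2, with 1 at an unadjusted p under 0.05 and a median of -0.81. Id1, a relative of Id2, had 198, 27, 125 and 43 counts. Tox2, Tox3, Tbr1 and Id4 had at most 5 counts in any library.

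Other factors of effector and exhausted cells gave a median of 0.90 over 13 genes, of which none passed in the edgeR quasi-likelihood test. Of the 13, 4 had an unadjusted p under 0.05, against 13.7% of all genes tested. DESeq2 called 3, against 3.51%, and the edgeR likelihood ratio test 4, against 4.7%. Ikzf3, a lymphoid zinc finger factor, had 3 and 3 counts against 75 and 79 and a log2 fold change of 4.06 (edgeR adjusted p = 0.0582), and passed in 7 of 15 alternatives, DESeq2 and the fit without KO 2 among them. Stat4, which relays interleukin 12 signals to Tbx21, had 1 and 9 counts against 111 and 54, and its log2 fold change of 3.52 ran from 2.69 without WT 1 to 5.49 without WT 2, passing in 6 of 15 alternatives, DESeq2 and the fits without WT 2 or KO 2 among them. Of 8 naive and progenitor factors 7 were tested and 2 rose, against 0.574% of genes past the threshold. DESeq2 called 3, against 3.51% of genes, and 3 had an unadjusted p under 0.05, against 13.7%. Of the 7, 5 had a log2 fold change above 0, whereas Klf2 (-1.11) was lower in both KO-labeled libraries. Tcf7, which encodes the progenitor factor TCF-1, had 9 and 4 counts against 376 and 156 and a log2 fold change of 4.75 (SE 0.75, edgeR adjusted p = 0.0317), which ran from 3.89 without KO 1 to 5.53 without WT 1. Myb had 1 and 0 counts against 116 and 51, giving a ratio of 112 between pooled counts (exact 95% interval 19.8 to 4448). The fitted log2 fold change of 6.55 was 9.25 without WT 1, where no WT count was left, and 5.50 without WT 2. Myb passed (edgeR adjusted p = 0.0485) but not with DESeq2 size factors (edgeR adjusted p = 0.0506), without KO 1 (edgeR adjusted p = 0.0919) or in 3 other alternatives, over which the adjusted p ran from 1.85e-06 to 0.279.

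Downstream, 2 of 10 exhaustion receptor genes and 1 of 12 tested effector genes rose, with medians of 2.31 and 2.35. DESeq2 called 6 and 7 of them, and 6 and 9 had an unadjusted p under 0.05 in edgeR. Over all genes tested the shares were 0.574% past the threshold, 3.51% in DESeq2 and 13.7% at the unadjusted p. Log2 fold changes were above 0 for 7 of the 10 receptor genes and 9 of the 12 effector genes. The receptor gene Havcr2 and the effector genes Ccl5 and Cx3cr1 had both KO-labeled libraries below both WT-labeled ones. Pdcd1, the gene of PD-1, had 4.51, 10.2, 115 and 311 normalized CPM and a log2 fold change of 4.84 (SE 0.68, edgeR adjusted p = 0.0269), which ran from 3.91 without KO 2 to 5.52 without WT 2. Cd160 had 0 and 3 counts against 246 and 120, or 81.8 times as many in pooled counts (exact 95% interval 27.8 to 398, edgeR adjusted p = 0.0295). The fitted log2 fold change of 6.31 was 5.39 without WT 1 and 10.31 without WT 2, where no WT count was left. Il2rb, the interleukin 2 receptor chain that Tbx21 and Eomes control, had 12.6, 17.3, 179 and 211 normalized CPM and a log2 fold change of 3.70 (SE 0.47, edgeR adjusted p = 0.0221), which did not pass without WT 1 (3.44, edgeR adjusted p = 0.0991). The T cell list, for comparison, had a median of 3.68.

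**Figure D5:**
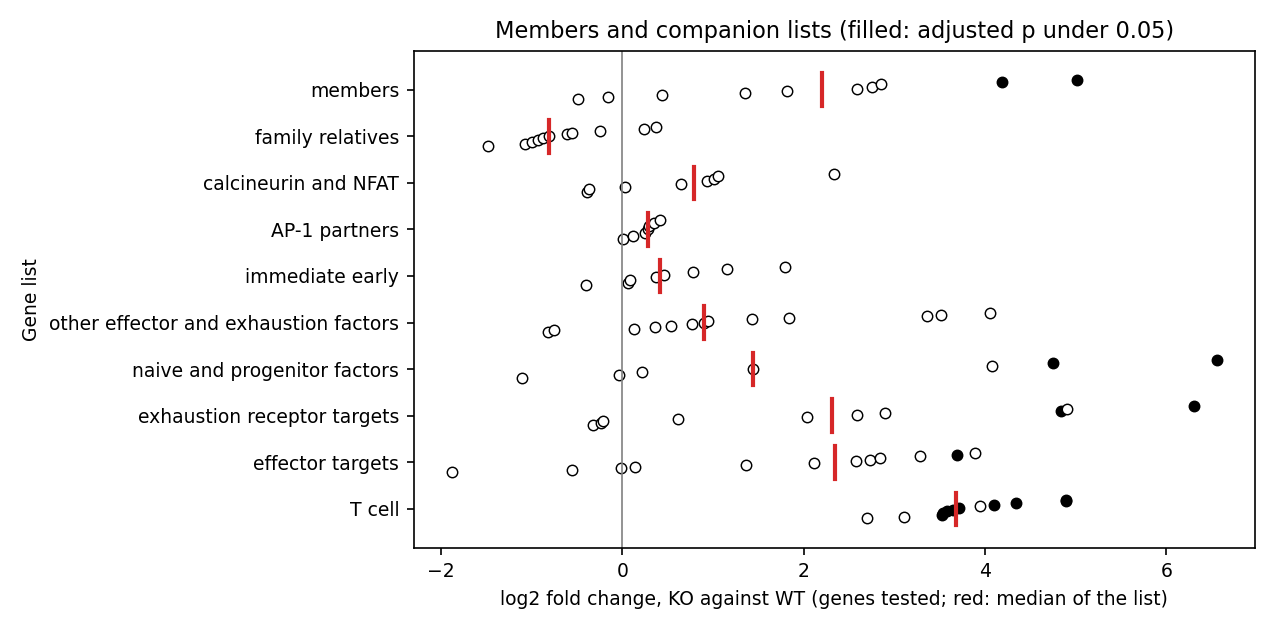
Log2 fold changes of KO against WT for the tested genes of the members, 8 companion lists and the T cell list, with filled points for an adjusted p under 0.05 and a red line for the median of each list. The members' median of 2.21 lies between that of the AP-1 partners (0.28) and that of the T cell list (3.68).

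The genes nearest to each member in pattern were found by the root mean square difference in log2 normalized CPM, with each gene centered on its mean over the 4 libraries, among genes with a mean of at least 10 CPM. Nearest to Tox were Ccl1 (0.33), Klrc1 (0.45) and Il2ra (0.48), and nearest to Tbx21 were Gem (0.16), Cd5 (0.20) and Abcb9 (0.27). Klrc1, a lectin-like receptor of cytotoxic cells, had 5, 30, 365 and 386 counts. Eomes lay closest to Ppp3cc (0.03), Il6 (0.06) and Slc45a2 (0.07), the last a melanocyte transporter gene with 34, 57, 348 and 335 counts. Nr4a2 lay closest to D16Ertd472e (0.08), Crem (0.08) and Naa15 (0.12), where Crem encodes a CRE-binding modulator and had 72, 137, 1480 and 449 counts. Nr4a3 lay closest to Ssb (0.29) and Cd209a (0.30), and Cd209a, a marker of monocyte-derived dendritic cells, had 26, 66, 666 and 135 counts. Nr4a1 lay closest to Ccnf, Tagap and Rasal3, at distances from 0.07 to 0.10. The other nearest genes were Dhx40, Thoc1 and Dnajb9 for Irf4, Camk2d, Mrpl41 and Taf5 for Batf, Thop1, Gm17080 and Depdc5 for Prdm1, and Grpel2, Tmem63b and Zfp511 for Id2. With 4 libraries many genes share a pattern, and these distances are a description.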

How the data were processed

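Each library has 1 table, in which the authors deposited raw counts of reads for each gene symbol. The submitters' processing notes and the study's methods name HISAT2 2.1.0 on mm10 and HTSeq 0.11.0; the annotation and the strand setting are not given in the sources used here, so reads of overlapping genes on opposite strands cannot be told apart. Rows that name no gene, 71.2% to 79.5% of each table's reads, were left out. Between 4017875 and 5382915 counts per library remained.

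Differential expression was tested in edgeR 4.0.16 under R 4.3.3: filterByExpr (10 counts, 15 in total), TMM factors, and the quasi-likelihood F test with group as the only term over 4 libraries, two-sided, adjusted by Benjamini-Hochberg over all genes tested with a threshold of 0.05. Fold changes used a prior count of 0.125, and an SE is the log2 fold change divided by the square root of F. Pooled ratios and shares have exact 95% intervals for counting error. DESeq2 1.42.0 and limma 3.58.1 were alternatives, and each library was left out in turn. Positions and exon lengths came from GENCODE M21 (GRCm38), which matched 96.3% of gene rows, and promoters from RefSeq (GRCm38.p6), which matched 9 members. Figures used matplotlib 3.10.9. The scripts were tested on simulated data.

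The members and lists were chosen with earlier results of these data known. Genes were named by this rule: all members; from each companion list those past the threshold, at most 5, or else the 2 with the largest absolute fold change; the 3 nearest in pattern, of which 1 gene is not reported here; and Satb1. Other genes given with values or directions (Irf8, Igkc, Jchain, Klre1, Lyz2, Wdfy4, Klf2, Havcr2, Ccl5, Cx3cr1 and the paralogs with few counts) were chosen after their values were seen. The library numbers 1 and 2 were not stated to pair samples.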

Additional observations from a re-analysis of the deposited data

How the results depend on the processing

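Tox and Tbx21 kept their direction in all 15 alternatives and passed in all but limma-voom, which called 0 genes and 0 members, with 1464 genes and 5 members at an unadjusted p under 0.05. Genes past the threshold numbered 68 and members 2 in the fit reported above. They were 134 genes with library totals only, 583 genes and 4 members without a filter on low counts, 416 and 4 in DESeq2, and 556 and 4 in the likelihood ratio test of edgeR. With the library number as a replicate block they were 215 genes and 3 members. Differences within the groups correlated at -0.19 over genes, so a crossed replicate block was added after seeing the data, with 647 genes and 4 members. The added members were Nr4a2 and, except under the uncrossed block, Nr4a3. Leaving out 1 library gave 113 to 1248 genes and 2 to 5 members, the most without KO 2, where Nr4a2, Nr4a3 and Irf4 also passed and the lone library was assumed to vary like the rest. Directions turned for Batf with library totals (0.18), for Id2 (0.44, down to -1.12 over the libraries left out) and Id1 (1.14, down to -2.13) without WT 1, for Fosl2 (-0.18, up to 0.80) without KO 1, and for Prdm1 (-0.75, up to 1.06), Junb (-0.19, up to 0.72) and Egr2 (-0.57, up to 1.90) without KO 2, and the cause was not tested. The log2 ratio of Tbx21 per T cell marker count, 0.19 and untested, was -0.41 without WT 2 and -0.14 without KO 2, within a range up to 1.25. Besides the 7 fold changes that turned, 410 recomputed values stayed on the same side of the threshold or, where untested, moved by less than 1 SD. These 410 include the Tbx21 ratios just given. A further 37 newly passed and 12 no longer passed. Tox had 11 and Eomes 9 counts in all under the WT label, and at this depth their fold changes are imprecise.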
